A study of Mus musculus with 9 samples.

Results

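The connexins of endothelium are 4 genes, Gja1, Gja4, Gja5 and Gjc1, chosen by symbol from the 56748 genes of the deposited count table. They encode the proteins Cx43, Cx37, Cx40 and Cx45. RNA was sequenced from endothelial cells sorted from the lungs of C57BL/6 mice 6 weeks of age, as live cells with CD31 signal and without CD45 signal. Each of the genotypes Notch1f/f, DNMAML and WT gave 3 libraries. The name Notch1f/f denotes mice with loxP sites in both copies of the receptor gene Notch1, and DNMAML commonly stands for a truncated, dominant-negative form of Mastermind-like that stops all Notch receptors from activating genes. The sources used here do not give the recombinase, its driver or the cells in which it acted. They also do not say that each library was a mouse of its own, so a p-value here covers the spread among libraries, which may be technical in part. Each genotype had libraries with and libraries without RNA of Y-linked genes, so its 3 libraries did not all come from the same mouse.

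Connexins assemble into hexameric half-channels that dock between neighbouring cells, and the resulting gap junctions pass ions, calcium signals and small metabolites. In mice, Cx37 and Cx40 are the main connexins of arterial endothelium, where Cx40 carries signals along the vessel wall, and both genes are known to respond to Notch signalling and shear stress. Cx43 is the most widely expressed connexin of the body. It is usual in smooth muscle, fibroblasts and epithelium, and in endothelium it is typical of sites of disturbed flow. Cx45 is known from early vessels, smooth muscle and the conduction system of the heart.

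The libraries held between 15522100 and 27842496 counts. The endothelial genes Cdh5 and Pecam1 had between 5366 and 6656 CPM and between 3408 and 4353 CPM in all libraries, where CPM is the usual depth-scaled read count on library sizes scaled by TMM. Notch1 had 70.8, 29.5 and 176 CPM in Notch1f/f libraries, 679, 872 and 777 CPM in DNMAML libraries and 766, 909 and 811 CPM in WT libraries. The Notch1f/f libraries were thus low in Notch1 and replicate 3 was the least so, while DNMAML and WT overlapped. The log2 difference of Notch1 in Notch1f/f was -3.17 (SE 0.588) from WT and -3.075 (SE 0.586) from DNMAML. Neither passed the threshold of the edgeR test used below (Benjamini-Hochberg adjusted p = 0.0634 and 0.368). Even this large difference did not pass in that test, so a gene that did not pass may still differ between genotypes. Under 19 alternative settings, listed below, the difference of Notch1 in Notch1f/f passed in 6 from WT and in 4 from DNMAML. Gene totals need not show a transgene, so the DNMAML label is not checked by them. The sort left RNA of other cells: the summed level of 15 mural cell genes was 243 to 481 CPM in Notch1f/f, 611 to 1269 CPM in DNMAML and 978 to 1522 CPM in WT libraries. In bulk samples, fewer cells of a type and less RNA per cell cannot be told apart.

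All 4 genes were detected in every library, with 164 to 5678 counts per gene and library, and all 4 passed the filter on low counts. Gja1 (ENSMUSG00000050953) lies on chromosome 10 from 56253426 to 56278609 on the plus strand, and Gja5 (ENSMUSG00000057123) on chromosome 3 from 96812009 to 96984732 on the plus strand. Gja4 (ENSMUSG00000050234) lies on chromosome 4 from 127205214 to 127207832 on the minus strand, and Gjc1 (ENSMUSG00000034520) on chromosome 11 from 102690405 to 102710526 on the minus strand. These are gene bounds of the deposited table on GRCm39. Gja1, Gja4 and Gjc1 overlapped no other gene of the table. Gja5 shared 165 exon bases with Gpr89 on the opposite strand, and the counting command names no strand option, so reads in those bases cannot be assigned. Gpr89 had 30.8, 22.3 and 25.5 CPM in Notch1f/f, 23.1, 26.5 and 23.5 CPM in DNMAML and 23.9, 30.6 and 31.0 CPM in WT libraries, which overlap.

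The 250 bases before the annotated start are shown for Gja1 and Gja5, the members with the largest differences from WT, as the stretch next to which transcription begins. They are RefSeq sequences on GRCm38.p6, read 5′ to 3′ on the gene's strand, at chr10:56377050-56377299 (plus) and chr3:97032152-97032401 (plus). Capitals mark the matches to 3 motifs searched on both strands: the core site of the Notch partner RBPJ (TGGGAA), the AP-1 site of Fos and Jun proteins (TGANTCA) and the GC box of Sp proteins (GGGCGG).
Gja1: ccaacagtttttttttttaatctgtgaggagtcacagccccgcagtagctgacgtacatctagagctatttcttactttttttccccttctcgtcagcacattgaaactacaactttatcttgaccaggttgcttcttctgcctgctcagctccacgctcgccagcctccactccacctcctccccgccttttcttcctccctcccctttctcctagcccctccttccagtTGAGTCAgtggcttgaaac
Gja5: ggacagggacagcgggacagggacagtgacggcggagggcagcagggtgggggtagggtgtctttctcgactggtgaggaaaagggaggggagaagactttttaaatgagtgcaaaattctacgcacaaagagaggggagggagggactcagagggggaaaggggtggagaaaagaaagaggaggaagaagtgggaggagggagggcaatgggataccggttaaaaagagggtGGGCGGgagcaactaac
The AP-1 match of Gja1 lies 19 to 13 bases before the start, and 6.75% of 32851 mouse promoter windows of this length held such a match. The GC box of Gja5 lies 17 to 12 bases before the start, and that of Gja4, in its own window of the same length, 79 to 74 bases before it. A GC box was in 32.7% of the windows. TGGGAA was in 21.6% of the windows and in none of these 3, which says only that these letters are not there. Gjc1 was not examined.

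Gja1 was the member with the clearest difference between genotypes. Its level was 62.4, 84.9 and 40.6 CPM in Notch1f/f libraries, 25.8, 43.1 and 27.2 CPM in DNMAML libraries and 14.5, 10.5 and 19.0 CPM in WT libraries. Every Notch1f/f and every DNMAML library was above every WT library, while replicate 3 of Notch1f/f was below replicate 2 of DNMAML. Gja1 averaged 62.7 ± 22.2 CPM in Notch1f/f and 14.6 ± 4.23 CPM in WT (SD, n = 3 each), a 4.27-fold difference in the fit. The log2 change was 2.10 (SE 0.32, 95% interval 1.39 to 2.80), so Gja1 rose in Notch1f/f (quasi-likelihood test of edgeR, Benjamini-Hochberg adjusted p = 0.0196). It was the only one of the 4 members past the threshold of 0.05, where 163 of 19486 genes passed (0.836%), 100 of them higher (0.513%) and 63 lower (0.323%). The call was lost on leaving out replicate 1 of WT (log2 difference 2.10, edgeR adjusted p = 0.108), replicate 2 of WT (1.90, edgeR adjusted p = 0.0770) or replicate 2 of Notch1f/f (1.82, edgeR adjusted p = 0.0605). It was kept with DESeq2 (adjusted p = 3.56e-08) and limma-voom (adjusted p = 0.0452).

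In DNMAML, Gja1 averaged 32.1 ± 9.63 CPM, against 14.6 ± 4.23 CPM in WT (SD, n = 3 each). The log2 difference was 1.13 (SE 0.31, 95% interval 0.44 to 1.82), which did not pass (edgeR, Benjamini-Hochberg adjusted p = 0.371). A single gene of 19486 passed in that comparison (0.00513%), and 0 of the 4 connexins did, while 1164 genes (5.97%) had an unadjusted p under 0.05. With DESeq2 the same difference of Gja1 passed (1.12, adjusted p = 0.046), where 213 genes passed (1.14%). Between Notch1f/f and DNMAML the log2 difference of Gja1 was 0.97 (SE 0.31, 95% interval 0.29 to 1.65; edgeR adjusted p = 0.583), in a comparison with 4 genes past the threshold (0.0205%). The level of Gja1 in DNMAML thus lay between the other genotypes, with neither of its differences past the threshold of the edgeR test.

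**Figure D1:**
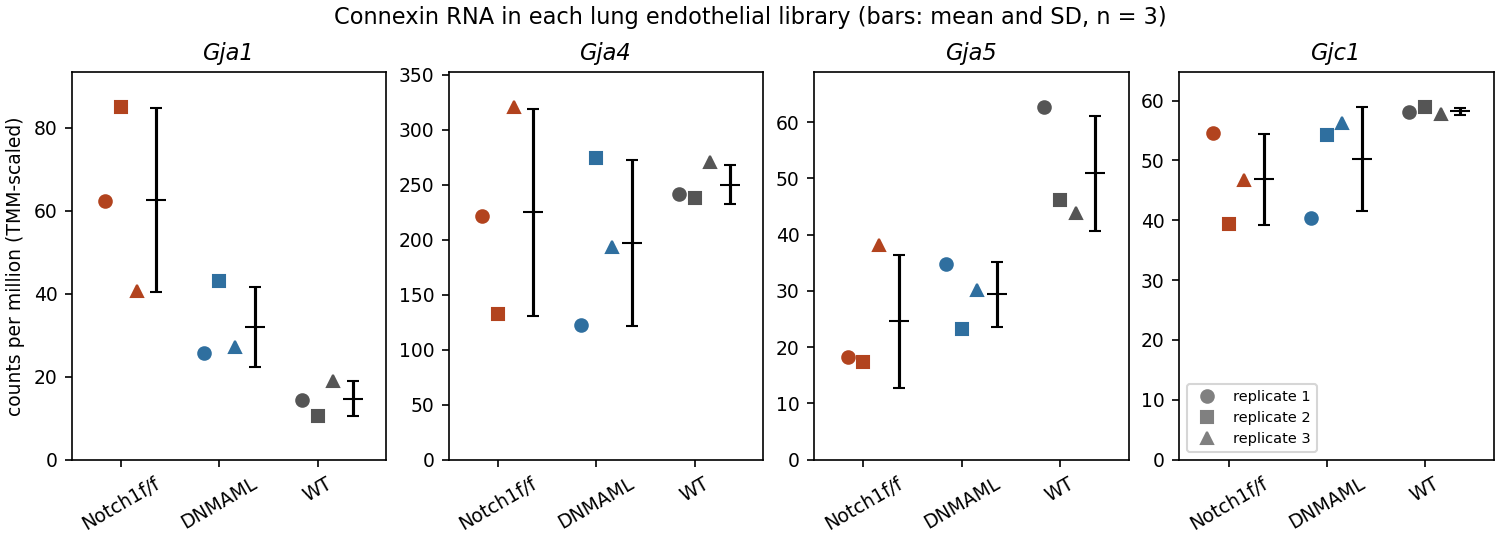
CPM of each connexin (linear axis from 0) in the Notch1f/f, DNMAML and WT libraries, a panel per gene, with a symbol per replicate and a bar for mean and SD (n = 3). Gja1 is 40.6 to 84.9 CPM in Notch1f/f and 10.5 to 19.0 CPM in WT, while Gja5 is 17.3 to 38.2 CPM in Notch1f/f and 43.8 to 62.6 CPM in WT.

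Gja5, the connexin of arterial endothelium, had the opposite direction. Its level was 18.3, 17.3 and 38.2 CPM in Notch1f/f libraries, 34.7, 23.2 and 30.2 CPM in DNMAML libraries and 62.6, 46.1 and 43.8 CPM in WT libraries. Every Notch1f/f and DNMAML library was below every WT library, and replicate 3 of Notch1f/f stood apart from the other two of its genotype, above all DNMAML libraries. Gja5 averaged 24.6 ± 11.8 CPM in Notch1f/f and 50.9 ± 10.2 CPM in WT (SD, n = 3 each). The log2 difference of -1.05 (SE 0.30, 95% interval -1.72 to -0.38) did not pass (edgeR, Benjamini-Hochberg adjusted p = 0.134). Without Notch1f/f replicate 3 it was -1.52 and passed (edgeR adjusted p = 0.0193), and it passed with DESeq2 on all libraries (-1.05, adjusted p = 0.0196), where 1067 genes passed (6.2%).

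In DNMAML, Gja5 averaged 29.4 ± 5.82 CPM, against 50.9 ± 10.2 CPM in WT (SD, n = 3 each), a log2 difference of -0.79 (SE 0.30, 95% interval -1.45 to -0.13). This did not pass in the fit to all libraries (edgeR, Benjamini-Hochberg adjusted p = 0.675). Over genes averaging at least 1 CPM, same-numbered DNMAML and WT libraries had correlated deviations from their group means (0.440, 0.465 and 0.238). Gja5 itself deviated in opposite directions in the libraries numbered 3, above its mean in DNMAML and below it in WT. The pairing was chosen from these same data. With the number as a block in these 6 libraries Gja5 fell by 0.79 on the log2 scale (edgeR adjusted p = 0.0155). In that fit 310 genes passed (1.71%). With the block in all 9 libraries the difference of Gja5 was -0.82 and did not pass (edgeR adjusted p = 0.578), where 4 genes passed (0.0205%). By their Y-linked genes each such pair held 1 male and 1 female library, so a difference within a pair is also a difference between sexes. Between Notch1f/f and DNMAML, Gja5 differed by -0.26 (SE 0.30, 95% interval -0.92 to 0.40), less than the spread of the libraries.

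Gja4, the other arterial connexin, varied more between libraries than between genotypes. Its level was 221, 133 and 320 CPM in Notch1f/f, 123, 274 and 194 CPM in DNMAML and 241, 238 and 270 CPM in WT libraries. The WT libraries lay close together, and those of Notch1f/f and DNMAML spread on both sides of them. Means were 225 ± 93.7 CPM in Notch1f/f, 197 ± 75.6 CPM in DNMAML and 250 ± 17.9 CPM in WT (SD, n = 3 each). The log2 difference from WT was -0.15 (95% interval -0.93 to 0.62) in Notch1f/f and -0.35 (-1.12 to 0.43) in DNMAML, so differences of either sign remain within the intervals. Without Notch1f/f replicate 2 the difference of Notch1f/f from WT had the other sign, at 0.12.

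Gjc1 was the member with the smallest SE. Its level was 54.5, 39.3 and 46.7 CPM in Notch1f/f, 40.3, 54.3 and 56.2 CPM in DNMAML and 58.1, 58.8 and 57.7 CPM in WT libraries. The WT libraries lay close together, and each stood above every Notch1f/f and DNMAML library. Means were 46.8 ± 7.59 CPM in Notch1f/f, 50.3 ± 8.64 CPM in DNMAML and 58.2 ± 0.572 CPM in WT (SD, n = 3 each). The log2 difference from WT was -0.31 (SE 0.16, 95% interval -0.66 to 0.04) in Notch1f/f and -0.21 (SE 0.16, -0.56 to 0.14) in DNMAML, neither past the threshold (edgeR, Benjamini-Hochberg adjusted p = 0.431 and 0.999).

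Counted by overlap, Gja1, Gja5 and Gjc1 separated from WT in Notch1f/f, 3 of the 4 members where 17.8% of all genes did. The same 3 separated from WT in DNMAML, where 14.4% of genes did. For Gjc1 the nearest libraries there were close, at 56.2 CPM in DNMAML and 57.7 CPM in WT. The comparisons of Notch1f/f and of DNMAML share the WT libraries, so their directions are not independent. Between Notch1f/f and DNMAML all 4 members overlapped, where 9.72% of genes did not.

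**Figure D2:**
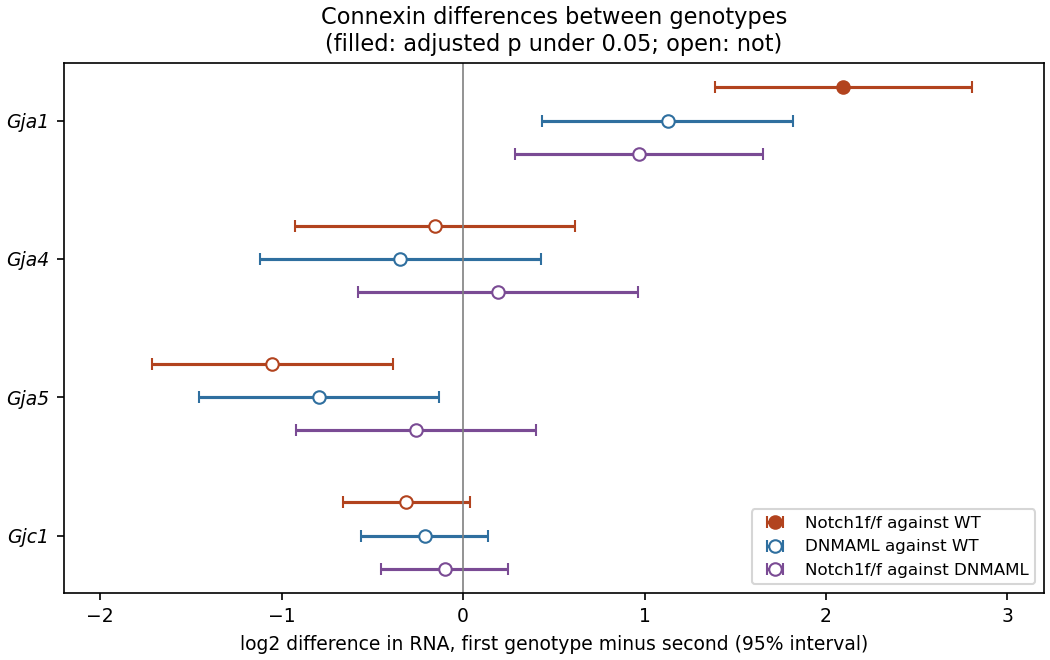
Log2 differences of the 4 connexins (horizontal axis, first genotype minus second, bars 95% intervals, n = 3 libraries per genotype) for Notch1f/f against WT, DNMAML against WT and Notch1f/f against DNMAML. The filled point, Gja1 in Notch1f/f against WT at 2.10, is the member past the threshold in the edgeR test, and the intervals of Gja4 and Gjc1 all include 0.

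**Figure D3:**
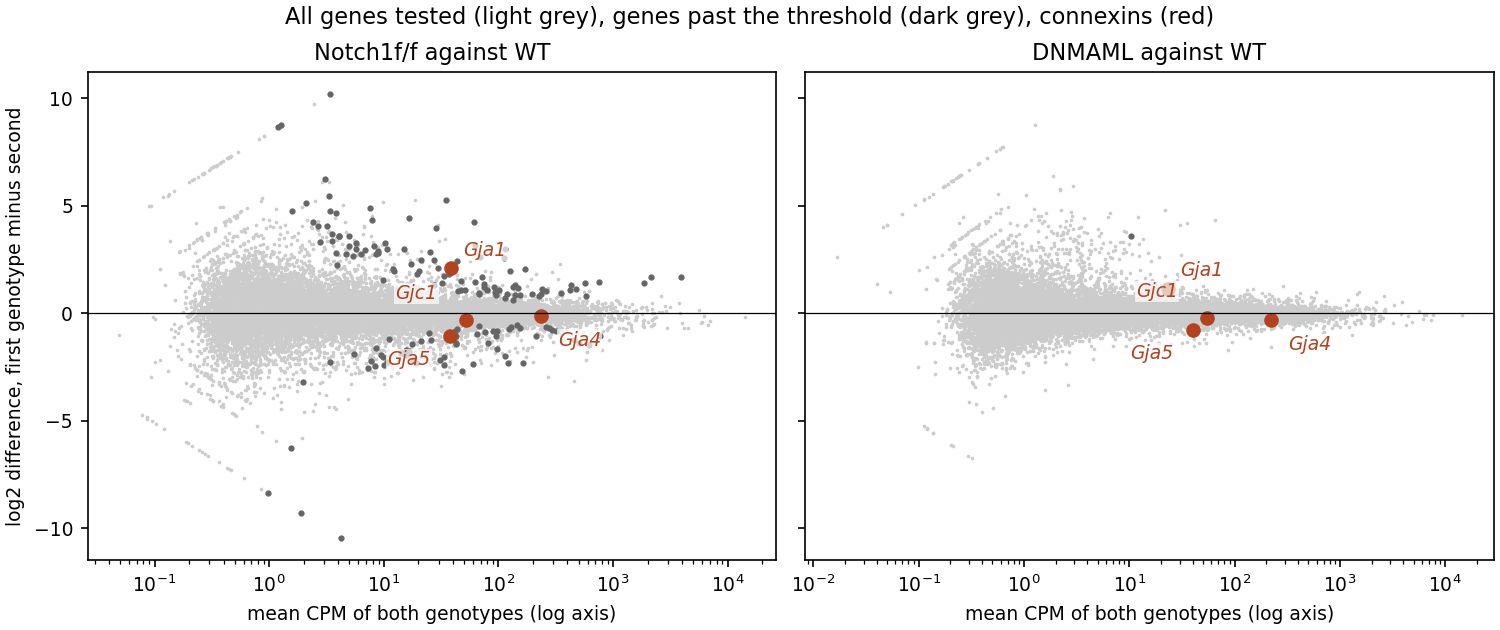
Log2 difference (first genotype minus second) of all 19486 genes tested against their mean CPM (log axis), for Notch1f/f against WT and DNMAML against WT, with genes past the threshold in dark grey and the connexins in red. Gja1 is past the threshold in Notch1f/f (2.10) and not in DNMAML (1.13), and Gja5 lies below 0 in both.

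To compare genes with each other, levels were divided by the gene's length in the deposited table, as CPM per kilobase. In Notch1f/f the order was Gja4 at 133 ± 55.6, Gjc1 at 9.36 ± 1.52, Gja1 at 6.11 ± 2.16 and Gja5 at 4.28 ± 2.06 CPM per kilobase (SD, n = 3). In DNMAML it was Gja4 at 117 ± 44.9, Gjc1 at 10.05 ± 1.73, Gja5 at 5.11 ± 1.01 and Gja1 at 3.12 ± 0.939. In WT it was Gja4 at 148 ± 10.6, Gjc1 at 11.6 ± 0.114, Gja5 at 8.85 ± 1.78 and Gja1 at 1.43 ± 0.412. Gja4 was first in every library by a wide margin. Gja1 and Gja5 overlapped in Notch1f/f and in DNMAML and did not in WT, and Gja1 and Gjc1 overlapped in Notch1f/f. The length of 10257 bases for Gja1 joins all annotated exons. With the longest protein-coding transcript in place of it, Gja1 stood above Gja5 in DNMAML as well (10.1 ± 3.03 and 8.00 ± 1.59 CPM per kilobase of transcript), and it stayed last in WT.

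Per length, Gja4 made up most of the summed connexin RNA of the 4 genes, with a mean share of 85.9% in Notch1f/f, 85.5% in DNMAML and 87.1% in WT. Without division by length, the share of Gja4 was lower, at 60.8% in Notch1f/f, 62.4% in DNMAML and 66.9% in WT. The share of Gja1 was 4.79 ± 3.35% in Notch1f/f, 2.37 ± 0.421% in DNMAML and 0.832 ± 0.193% in WT (SD, n = 3 each). Without division by length it was 19.2 ± 11.03% in Notch1f/f, 10.4 ± 1.41% in DNMAML and 3.89 ± 0.939% in WT. All libraries of both genotypes were above those of WT in this share, which does not depend on the library scaling. Per length, Notch1f/f exceeded WT by 3.96 percentage points, and by 2.12 without replicate 2 of Notch1f/f, while it exceeded DNMAML by 2.42 points, and by 0.583 without that library and 3.87 without replicate 3 of Notch1f/f. The share of Gja5 was 2.78 ± 0.591% in Notch1f/f, 4.30 ± 2.29% in DNMAML and 5.23 ± 1.18% in WT. For Gja5, Notch1f/f stood apart from WT while DNMAML overlapped it.

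The opposite directions of Gja1 and Gja5 can be read within a library as Gja5 counts per Gja1 count, a ratio chosen after the values had been seen. It was 0.292, 0.203 and 0.942 in Notch1f/f, 1.34, 0.537 and 1.11 in DNMAML and 4.33, 4.39 and 2.31 in WT libraries. The WT ratios were all above those of the other genotypes. In counts, not per length, Gja5 thus exceeded Gja1 in each WT library and was below it in each Notch1f/f library.

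Among the 3 Notch1f/f libraries the level of Notch1 differed, with 70.8, 29.5 and 176 CPM in replicates 1, 2 and 3. Replicate 2, with the least Notch1, had the most Gja1 (84.9 CPM) and the least Gja5 (17.3 CPM) and Gja4 (133 CPM). Replicate 3, with the most Notch1, had the least Gja1 (40.6 CPM) and the most Gja5 (38.2 CPM) and Gja4 (320 CPM). Gjc1 did not follow this order, with 54.5, 39.3 and 46.7 CPM in replicates 1, 2 and 3. With 3 libraries the order of the other members is a description. In DNMAML libraries, whose Notch1 was 679 to 872 CPM, Gja1 was 25.8 to 43.1 CPM, above WT at overlapping Notch1.

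**Figure D4:**
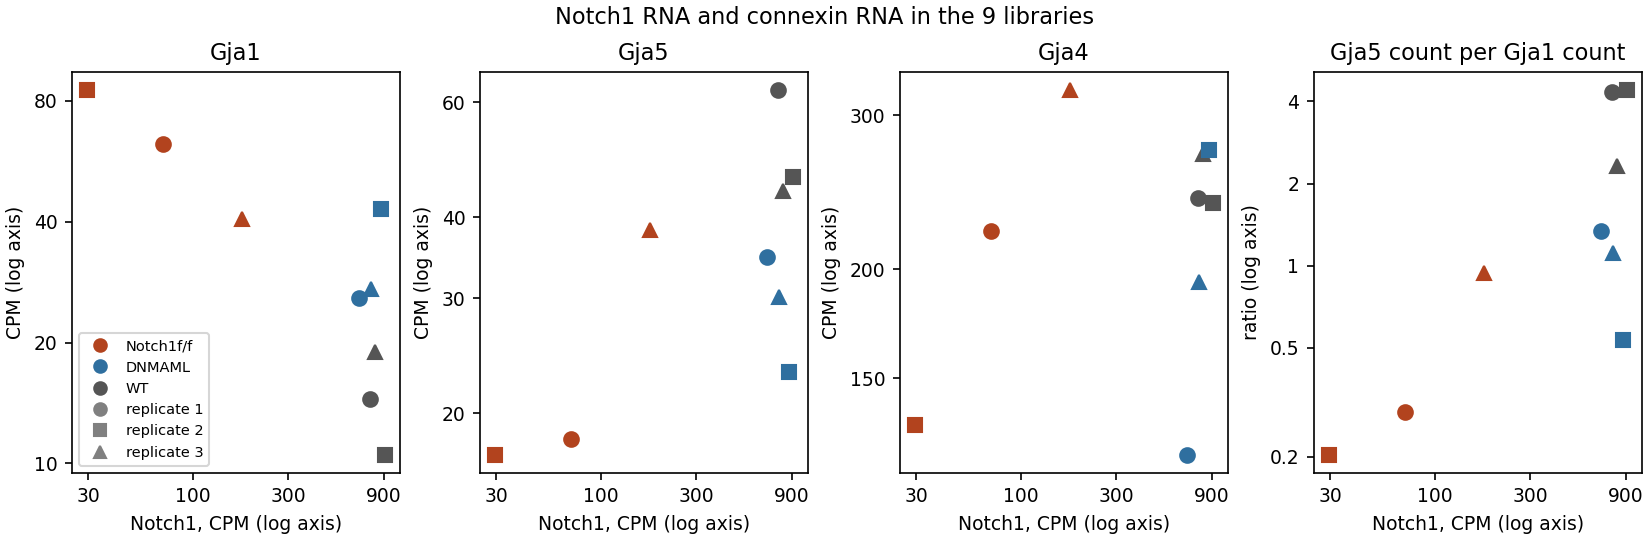
Gja1, Gja5, Gja4 (CPM) and the ratio of Gja5 to Gja1 counts against Notch1 (CPM) in the 9 libraries, both axes logarithmic, coloured by genotype (Notch1f/f, DNMAML, WT) with a symbol per replicate. Notch1f/f libraries lie to the left at 29.5 to 176 CPM of Notch1, and DNMAML and WT share the right side but differ in the ratio, at 0.537 to 1.34 and 2.31 to 4.39.

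Other connexins added little RNA. Of 20 connexin genes in the table, the 4 members held between 99.0% and 99.8% of the summed connexin CPM of a library. Of the other 16, 15 were too low to be tested and 2, Gja3 and Gje1, had 0 counts in all libraries.

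A list of 28 genes whose products bind, phosphorylate or degrade connexins was tested in full. In Notch1f/f 2 of them rose and 0 fell, with a median log2 difference of -0.07, where the median of all genes was 0.02. Of all genes tested, 0.513% rose and 0.323% fell there. The 2 were Dbn1 and Cdk1, and Cdk1 is also 1 of the 9 cell cycle genes that rose in Notch1f/f, reported below. Dbn1 encodes drebrin, an actin-binding protein known to hold Cx43 at the membrane. Its level was 32.8, 68.0 and 53.4 CPM in Notch1f/f, 32.6, 46.1 and 28.3 CPM in DNMAML and 18.3, 15.5 and 13.5 CPM in WT libraries, with no overlap between WT and the others. Dbn1 rose by 1.70 in Notch1f/f (SE 0.27, edgeR, Benjamini-Hochberg adjusted p = 0.0195). Cdk1, a mitotic kinase that phosphorylates Cx43, had 2.42, 25.0 and 17.3 CPM in Notch1f/f, 11.1, 8.59 and 10.2 CPM in DNMAML and 1.04, 0.769 and 0.408 CPM in WT libraries, and rose by 4.33 (SE 0.76, edgeR adjusted p = 0.0354). Each call was lost on leaving out any 1 WT library or replicate 2 of Notch1f/f (edgeR adjusted p = 0.0605 to 0.0890 for Dbn1 and 0.0840 to 0.173 for Cdk1), and that of Cdk1 also on leaving out replicate 3 of Notch1f/f or replicate 1 or 3 of DNMAML (edgeR adjusted p = 0.0548 to 0.0639). With limma-voom neither passed (adjusted p = 0.0724 for Dbn1 and 0.400 for Cdk1). Over all 19 alternative settings the call of Dbn1 was lost in 6 and that of Cdk1 in 11. In DNMAML 0 of the 28 passed, with a median of -0.01. With the replicate block in 6 libraries, where 1.71% of all genes passed, 2 rose, Dbn1 by 1.15 and Cdk1 by 3.79 (edgeR adjusted p = 0.0103 and 0.00141). With the block in all 9 libraries 0 of the 28 passed (edgeR adjusted p = 0.179 for Dbn1 and 0.283 for Cdk1). Tjp1, which encodes the scaffold ZO-1 at the edge of gap junctions, had 1318 to 1651 CPM in Notch1f/f, 1405 to 1717 CPM in DNMAML and 1370 to 1504 CPM in WT libraries.

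Of 25 genes of the Notch and arterial programme, 1 fell and 0 rose in Notch1f/f, with a median log2 difference of -0.25. Of all genes tested, 0.323% fell there. Efnb2, the arterial ephrin ligand, had 561, 355 and 587 CPM in Notch1f/f, 552, 761 and 812 CPM in DNMAML and 1036, 1036 and 1070 CPM in WT libraries. Efnb2 fell by 1.06 (SE 0.20, edgeR, Benjamini-Hochberg adjusted p = 0.0336), and the call was lost on leaving out any 1 WT library or replicate 2 of Notch1f/f (edgeR adjusted p = 0.0873 to 0.116). The Notch targets Hes1 and Hey1 differed by -1.15 (SE 0.39) and -0.57 (SE 0.21), which did not pass in the edgeR test (adjusted p = 0.226 and 0.237). With DESeq2 Hes1 passed (-1.15, adjusted p = 0.0183) and Hey1 did not (adjusted p = 0.124). In DNMAML 0 of the 25 passed, with a median of -0.19. With the replicate block in 6 libraries, where 1.71% of all genes passed, 4 of the 25 fell: Efnb2, Hes1, Stmn2 and Vegfc. With the block in all 9 libraries Vegfc alone of the 25 passed, and Efnb2 and Hes1 did not (edgeR adjusted p = 0.579 and 0.116). Between Notch1f/f and DNMAML 0 passed, with a median of 0.13. Marker genes of arterial endothelium, 15 genes that include Gja4 and Gja5, summed to 2710 to 3708 CPM in Notch1f/f, 2797 to 3361 CPM in DNMAML and 3631 to 4054 CPM in WT libraries. Of the 14 tested, Efnb2 fell in Notch1f/f, and 0 passed in DNMAML, where Gja5, Efnb2 and Stmn2 fell with the replicate block in 6 libraries and 0 passed with it in all 9. In Notch1f/f 9 of the 14 had a log2 difference from WT below 0 and 5 above. Other endothelial lists also summed below every WT library: in DNMAML venous (2195 to 2881 CPM, WT 3418 to 3712) and lymphatic (818 to 923, WT 949 to 1011). In Notch1f/f it was the aerocyte capillary list (5104 to 7514 CPM, WT 9252 to 10064). Venous and lymphatic sums overlapped WT in Notch1f/f, aerocyte sums in DNMAML and general capillary sums in both. The part of arterial cell number in the values of Gja5 was not tested.

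Of 18 transcription factors known to act on connexin genes, among them Klf2 and Klf4 of the shear response, Foxc1, Tbx2 and the AP-1 and Sp families, 17 were tested. None passed in any of the 3 comparisons in the edgeR test, and the medians were -0.06 for Notch1f/f against WT, -0.07 for DNMAML against WT and -0.06 for Notch1f/f against DNMAML. Jun had 1414, 1844 and 2298 CPM in Notch1f/f, 2378, 1234 and 2734 CPM in DNMAML and 3296, 1778 and 2930 CPM in WT libraries. Fos had 495, 1307 and 1259 CPM in Notch1f/f, 1541, 345 and 1329 CPM in DNMAML and 2006, 319 and 1230 CPM in WT libraries. Replicate 1 of Notch1f/f and replicates 2 of DNMAML and WT were thus low in Fos. Among these libraries Gja1 was the highest of its genotype in DNMAML replicate 2, the lowest in WT replicate 2 and between the others in Notch1f/f replicate 1. The part of Fos and Jun in the connexin values was not tested.

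Markers of other cells were measured in every library. Of 15 mural genes 5 fell in Notch1f/f (Pdgfrb, Cspg4, Notch3, Higd1b and Gucy1a1) and 0 rose, with a median log2 difference of -1.71, and 0 passed in DNMAML (1, Rgs5, rose with the replicate block in 6 libraries and 0 with it in all 9). Of all genes tested, 0.323% fell in Notch1f/f, and 1.71% passed in DNMAML with the block in 6 libraries. Each of the 5 calls was lost on leaving out replicate 1 or 2 of WT or replicate 2 of Notch1f/f (edgeR adjusted p = 0.0681 to 0.154). That of Gucy1a1 was also lost on leaving out replicate 3 of WT, replicate 1 of DNMAML or replicate 1 of Notch1f/f (edgeR adjusted p = 0.0597 to 0.0741), and those of Cspg4 and Higd1b with limma-voom (adjusted p = 0.0621 and 0.0972). The summed mural level was lowest in replicate 1 of Notch1f/f (243, 287 and 481 CPM), replicate 2 of DNMAML (1269, 611 and 1243 CPM) and replicate 3 of WT (1522, 1406 and 978 CPM). Gja1 was highest of its genotype in that library for DNMAML and WT, and in replicate 2 for Notch1f/f. A list of 9 fibroblast genes summed to 226 to 694 CPM in Notch1f/f, 403 to 2175 CPM in DNMAML and 598 to 2202 CPM in WT libraries, and a list of 10 alveolar epithelial genes summed to 187 to 1113 CPM in Notch1f/f, 229 to 1686 CPM in DNMAML and 442 to 3352 CPM in WT libraries. Of the fibroblast and epithelial genes 0 passed in any of the 3 comparisons in the edgeR test. The summed level of 16 cell cycle genes was 87.9, 404 and 519 CPM in Notch1f/f, 352, 399 and 314 CPM in DNMAML and 30.4, 29.8 and 26.5 CPM in WT libraries. In Notch1f/f 9 of the 16 rose, among them Cdk1, which was counted above with the connexin partners, where 0.513% of all genes did. Every Notch1f/f and DNMAML library was above every WT library both in the summed level of these genes and in Gja1. Replicate 1 of Notch1f/f was below every DNMAML library in this sum and above them in Gja1. Replicate 3 of Notch1f/f, with the highest sum, had the least Gja1 of its genotype. The part of cell division in the Gja1 values was not tested. In DNMAML 0 of the 16 passed in the fit to all libraries. With the replicate block in 6 libraries 15 rose, where 1.71% of all genes passed, and 0 passed with it in all 9. Leukocyte genes summed to 136 to 329 CPM in Notch1f/f, 326 to 642 CPM in DNMAML and 113 to 828 CPM in WT libraries, with Cd3e and Itgam at 0 in several, and 0 of 7 tested passed, while Ptprc and Tyrobp rose in DNMAML with the replicate block in 6 libraries and 0 passed with it in all 9. The part of these cells in the connexin values was not tested.

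The genes most like each member over the 9 libraries were ranked by Pearson's r of log2(CPM + 1) among 8984 genes with at least 10 CPM on average. Nearest to Gja1 were Acsf2, an acyl-CoA synthetase (r = 0.982), Col15a1, a basement membrane collagen (r = 0.980), and Fyn, a Src family kinase (r = 0.979). Col15a1 had 85.6, 172 and 77.7 CPM in Notch1f/f, 34.7, 63.2 and 36.4 CPM in DNMAML and 14.6, 9.10 and 13.8 CPM in WT libraries. As for Gja1, replicate 2 was the highest of its genotype in Notch1f/f and in DNMAML and the lowest in WT. Nearest to Gja5 were Rabac1 (r = 0.986), Tk2 (r = 0.976) and Thra, a thyroid hormone receptor (r = 0.968). Rabac1 had 39.7, 39.8 and 59.5 CPM in Notch1f/f, 57.9, 42.7 and 52.1 CPM in DNMAML and 72.8, 60.4 and 64.1 CPM in WT libraries. Nearest to Gja4 were Zfp87 (r = 0.940), Hoxa5 (r = 0.924) and Dctn5 (r = 0.916), and nearest to Gjc1 were the splicing factor Rbm39 (r = 0.965), the Notch ligand Dll4 (r = 0.958) and the phosphatase Ptprb (r = 0.942). The 9 libraries are of 3 genotypes, so these r include the differences between genotypes and are descriptions.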

How the data were processed

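RNA of 9 libraries was analysed from the table of raw read counts per gene that the authors deposited, which are not normalized. Counting used featureCounts 2.0.1 with Ensembl release 107 on GRCm39, with no option for strand, read pairs or multiple mapping, as the header of the deposited file records. STAR 2.7 and the build mm10, which differs from the header, are named in the submitters' processing notes. Libraries were strand-specific total RNA made in 1 batch, per the labels. Many counts were even (76.6% to 89.0% of counts from 1 to 199 in a library), so read pairs may enter as 2 counts.

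The members and lists were chosen with earlier results of these data known. Symbols came from a GRCm38 annotation, used for names only (52073 of 56748 genes matched). Genes were kept by filterByExpr (19486), scaled by TMM and tested with edgeR 4.0.16 in R 4.3.3 (quasi-likelihood, robust, genotype only, all 9 libraries). The threshold was a Benjamini-Hochberg adjusted p of 0.05. Each SE is the absolute log2 difference divided by the square root of F, and intervals use the same value. Shares over the 4 genes carry no p, since an exact permutation test of 3 against 3 cannot go below 0.1. Tested on simulated counts, the edgeR test found 20.9% of the 2-fold changes and 55.7% of the 4-fold changes for Notch1f/f against WT (4 false of 77 calls), 17.5% and 52.2% for DNMAML against WT (6 of 71), and 22.6% and 51.0% for Notch1f/f against DNMAML (2 of 74). Alternatives were DESeq2 1.42.0, limma-voom 3.58.1, other scalings and filters, 6 libraries, a replicate block, a sex term and leaving out each library. Motifs were counted in RefSeq promoter windows of 250 bases. Named genes were the members, list genes past the threshold or with the highest CPM, the 3 genes most like each member, neighbours and Notch1; the transcript lengths and the Gja5 to Gja1 ratio were added after seeing the data.

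The labels number libraries 1 to 3 without saying what a number marks. Same-numbered WT and DNMAML libraries had correlated deviations from their group means (0.440, 0.465 and 0.238; others -0.399 to 0.0603) and were taken as pairs. Same-numbered Notch1f/f libraries had -0.201 to 0.250 with WT and -0.156 to 0.298 with DNMAML, so they were not. Replicates were not copies of each other. Results for some other connexin genes are not reported here.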

Additional observations from a re-analysis of the deposited data

How the results depend on the processing

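Directions of the 4 connexins against WT held under all alternatives, except that of Gja4 in Notch1f/f. Leaving out a library, Gja1 differed by 1.82 to 2.33 in Notch1f/f against WT, 0.86 to 1.36 in DNMAML against WT and 0.69 to 1.23 in Notch1f/f against DNMAML; Gja5 by -1.52 to -0.85, -0.93 to -0.62 and -0.73 to -0.06; Gja4 by -0.50 to 0.12, -0.65 to -0.09 and -0.16 to 0.50; Gjc1 by -0.44 to -0.19, -0.30 to -0.07 and -0.24 to 0.016, all log2. Gja1 was lost in Notch1f/f against WT with the replicate block in 6 libraries (2.07, edgeR adjusted p = 0.0958), where the numbers do not pair the samples. Hes1 in that comparison passed without a filter (adjusted p = 4.45e-09) and with the block in 9 (0.00912) and in 6 libraries (0.0415), and Hey1 without a filter (0.0181). The block in 6 libraries lost Efnb2 (0.0609), Dbn1 (0.0526), Cdk1 (0.211), Higd1b (0.0703) and Gucy1a1 (0.0621) there, and the block in 9 lost Cdk1 (0.0715), all edgeR. Without a filter, Gja1 (1.13) and Gja5 (-0.79) passed in DNMAML against WT, Gja5 (-1.05) in Notch1f/f against WT and Gja1 (0.97) in Notch1f/f against DNMAML. With DESeq2, Gja1 (1.12) passed in DNMAML and Gja5 (-1.05) in Notch1f/f against WT, and the block in 6 libraries passed Gja5 (-0.79) in DNMAML. The block changed no other call of the 4 connexins. Between Notch1f/f and DNMAML, Hes1 ran from -0.78 to 0.018 on leaving out a library and Cdk1 from -0.021 to 1.08, and Cdk1 was -0.024 with limma-voom. The causes were not tested.

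Counts of genes past the threshold, higher and lower, moved most. For DNMAML against WT (1 and 0) they were 361 and 99 without a filter, 175 and 38 with DESeq2, 0 higher with limma-voom, 65 and 13 in 6 libraries, 2 and 2 with the replicate block in 9 libraries, 212 and 98 with it in 6, and 30 and 3 with a sex term. For Notch1f/f against WT (100 and 63) they were 664 and 751 without a filter, 550 and 517 with DESeq2, 36 and 33 with limma-voom, 149 lower with the block in 9 libraries, 50 higher with it in 6, and 156 higher with a sex term. For Notch1f/f against DNMAML (2 and 2) they were 176 and 520 without a filter, 56 and 116 with DESeq2, 0 and 1 in 6 libraries, 5 lower with the block in 6, and 1 higher with a sex term. Leaving out a library gave 0 to 84 higher and 0 to 10 lower for DNMAML against WT, most without Notch1f/f replicate 1; 8 to 369 and 5 to 161 for Notch1f/f against WT, fewest without WT replicate 1 and most without Notch1f/f replicate 1; and 0 to 10 and 2 to 21 for Notch1f/f against DNMAML, most without DNMAML replicate 2.

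The mean of Gjc1 in WT was 57.4 CPM without scaling. By rank of level, Gja1 was 3 in DNMAML both by CPM and per longest transcript and 2 in Notch1f/f by CPM, Gja5 was 4 in DNMAML by both, and Gjc1 was 3 in Notch1f/f by CPM. The difference of Gja1 in share, in percentage points, ran from 2.12 to 5.41 in Notch1f/f against WT and 0.583 to 3.87 in Notch1f/f against DNMAML on leaving out a library. Differences in share changed sign on leaving out a library for Gja4 (-3.52 to 0.521 in DNMAML and -3.52 to 1.51 in Notch1f/f against WT, -1.98 to 3.05 in Notch1f/f against DNMAML), for Gja5 in DNMAML against WT (-2.16 to 0.112) and for Gjc1 in Notch1f/f against WT (-1.03 to 0.757). Without length that of Gja4 in Notch1f/f against DNMAML was -1.68. In the simulated data most 2-fold differences did not pass at this number of libraries. The changed genes there were drawn at random from all genes kept, so this is not a rate for the connexins.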

Other observations

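Pannexins form channels related to those of connexins and release ATP from cells. Of 3 pannexin genes Panx1 was tested. Its level was 7.21, 6.82 and 9.70 CPM in Notch1f/f, 9.95, 3.50 and 4.38 CPM in DNMAML and 5.10, 4.74 and 5.66 CPM in WT libraries. Each Notch1f/f library was above each WT library, and DNMAML replicate 1 was above all of them. Panx1 passed in none of the 3 comparisons in the edgeR test.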
